A study of Mus musculus with 16 samples.

Results

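Synapses pass signals between neurons, and the 34 genes described here encode proteins from both of their sides. They are the rows of the deposited raw count table whose symbol names a synaptic vesicle, release, scaffold, adhesion or glutamate receptor gene, 34 of the table's 53801 gene rows. Of these, 17 act on the presynaptic side and 17 on the postsynaptic side. RNA came from cortex of C57BL/6 mice aged 12 to 12.93 months, perfused before the brain was frozen and powdered, with 1 library per animal. KO AAV mice (n = 5, 3 males and 2 females) lacked Grn, the progranulin gene, and had received a tail vein injection of adeno-associated virus at 300000000000 vector genomes 8 months before. The virus targets liver and makes human progranulin joined to 8D3, a transferrin receptor antibody fragment meant to carry the protein into the brain. KO saline mice (n = 5, 4 males and 1 female) lacked Grn and were given saline. WT saline mice (n = 6, 3 males and 3 females) carried Grn and were given saline. No animal received a virus without progranulin, so the vector and its cargo cannot be told apart, and which promoter drives the transgene is not stated in the labels.

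In a presynaptic terminal, neurotransmitter is stored in vesicles that dock at the active zone, a protein scaffold under the membrane. When calcium enters, the sensor synaptotagmin triggers SNARE proteins on vesicle and cell membrane to fuse both, and the transmitter is released. Across the cleft, the postsynaptic density holds AMPA and NMDA glutamate receptors in place through scaffold proteins, next to abundant calcium-dependent kinases. In cortex most synapses use glutamate, and the level of these transcripts also depends on how much of a sample is neuronal tissue. In bulk tissue, fewer cells of a type and less RNA per cell cannot be told apart.

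Libraries held 1351974 to 2119019 counts, and mitochondrial transcripts took 20.4% to 29.8% of them, most in KO saline replicate 1. Grn had 16 to 67 counts in each WT saline library and no count in any knockout library, so the genotype labels fit the counts. The virus carries a human sequence, which these mouse Grn counts do not measure. Levels are given as CPM, each gene's count scaled by the TMM-adjusted total of its library; the method counts tags near the 3′ end of a transcript, so CPM is not divided by transcript length. The deposited counts carry no more than 2 significant digits, which can move a value of 100 or more by up to 5%; 435 of the members' 544 counts were that large. Markers fit cortex: cortical excitatory neuron markers summed to 2572 to 3299 CPM in KO AAV, 2688 to 3762 in KO saline and 2542 to 3552 in WT saline. Striatal neuron markers were also present in every library and uneven, from 308 to 1875 CPM over all libraries, whereas choroid plexus and ependyma markers summed to 8.31 to 42.3 CPM. KO saline replicates 1 and 3 and WT saline replicate 4 stood apart from the other libraries in the synaptic genes themselves, as described further on. For part of the results, values without these libraries are given too.

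Promoter sequence is shown for 4 of the members named in the comparisons further on, the vesicle genes Syp, Rab3a and Syngr1 and the receptor gene Grin1. Each run is the stretch of up to 250 bases before the gene's start, 5′ to 3′ on the gene's strand, from RefSeq (GRCm38.p6), ending before the first annotated exon. Capitals mark 3 motifs, which were searched on both strands (so a capital run may be the reverse complement) and do not overlap here, the GC box GGGCGG, the CRE core TGACGT and the E box CACGTG; the TATA box letters TATAAA were searched too and are in none of the 4.
Syp (chrX:7638330-7638470, plus strand): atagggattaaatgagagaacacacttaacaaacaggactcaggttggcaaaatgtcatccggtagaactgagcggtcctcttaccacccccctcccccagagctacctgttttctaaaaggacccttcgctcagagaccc
Rab3a (chr8:70754453-70754678, plus strand): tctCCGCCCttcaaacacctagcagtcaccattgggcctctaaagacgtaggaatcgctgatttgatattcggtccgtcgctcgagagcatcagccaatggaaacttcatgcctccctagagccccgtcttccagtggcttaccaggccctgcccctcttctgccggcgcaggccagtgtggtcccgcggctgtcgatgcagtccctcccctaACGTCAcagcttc
Syngr1 (chr15:80091084-80091333, plus strand): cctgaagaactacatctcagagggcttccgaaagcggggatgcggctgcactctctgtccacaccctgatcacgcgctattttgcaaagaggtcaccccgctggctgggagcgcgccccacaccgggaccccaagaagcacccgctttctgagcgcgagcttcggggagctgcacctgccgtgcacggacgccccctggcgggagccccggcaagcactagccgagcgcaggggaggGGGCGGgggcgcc
Grin1 (chr2:25319188-25319437, minus strand): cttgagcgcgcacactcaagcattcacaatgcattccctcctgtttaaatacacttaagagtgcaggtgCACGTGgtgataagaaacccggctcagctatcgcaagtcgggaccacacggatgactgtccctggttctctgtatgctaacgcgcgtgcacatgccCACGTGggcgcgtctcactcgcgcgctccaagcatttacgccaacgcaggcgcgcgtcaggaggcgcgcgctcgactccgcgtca
Rab3a has 1 GC box and 1 CRE core in its run, Syngr1 has 1 GC box, Grin1 has 2 E boxes, and Syp has none of the motifs in its 141 bases. The counts below use the full window of 250 bases before the RefSeq start, which for Syp and Rab3a runs past the stretch shown and holds 2 GC boxes in each. Of the 34 members, 24 matched a RefSeq window of the full 250 bases; Camk2a, Gria1, Gria3, Grin2a, Grin2b, Nlgn3, Shank1, Shank2, Snap25 and Vamp2 did not. The windows of Cplx2 and Nrxn3 lie 68793 and 71628 bases from the gene start in GENCODE, at another RefSeq start, and hold none of the motifs, and that of Homer1 lies 4122 bases away. In these windows the GC box occurred in 10 of 15 presynaptic and 3 of 9 postsynaptic members, against 32.7% of all 32851 windows in the table. The CRE core was in 3 of the 24 windows (6.47% of all windows), the E box in 1 (6.02%) and the TATA box in 1 (12.4%). The members' windows had a median GC content of 61.2%, against 52.4% over all windows. A match to these letters is a description of the sequence and says nothing about binding in these samples.

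All 34 members were abundant enough to test, and 3 of them, Syt1, Camk2a and Snap25, ranked 18, 21 and 23 by mean CPM among the 10363 genes tested. Syt1, the vesicle calcium sensor (ENSMUSG00000035864, chromosome 10, 108497650 to 109010982, GRCm38), had the highest level of the 34. It was at 2785, 2373, 2403, 2594 and 2243 CPM across KO AAV, 2178, 2594, 2316, 2547 and 2162 across KO saline, and 1801 (lowest), 2363 (median) and 3532 (highest) across WT saline. The WT saline animals spanned a wider range than either knockout group and enclosed both. Camk2a, the alpha subunit of the calcium-dependent kinase of the postsynaptic density (ENSMUSG00000024617, chromosome 18, 60925618 to 60988152), came next, at 1874, 2147, 1602, 2086 and 2679 CPM across KO AAV, 2985, 2075, 2470.2, 1968 and 1853 across KO saline, and 1854 (lowest), 2128 (median) and 3157 (highest) across WT saline. Snap25, a SNARE protein of the cell membrane (ENSMUSG00000027273, chromosome 2, 136713453 to 136782428), followed. It was at 2999, 2768, 1762, 1748 and 1869 CPM across KO AAV, 968, 3409, 926, 2720.3 and 2718 across KO saline, and 1052 (lowest), 1722 (median) and 3255 (highest) across WT saline. The highest Snap25 library exceeded the lowest by 3.68-fold, the widest span of the 34, and both extremes were KO saline animals.

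At the low end of the presynaptic side stood Unc13a, which primes vesicles for fusion (ENSMUSG00000034799, chromosome 8, 71624417 to 71671757), at 29.5, 27.1, 20.8, 30.5 and 33.0 CPM across KO AAV, 29.8, 25.9, 21.6, 28.4 and 29.6 across KO saline, and 23.5 (lowest), 27.3 (median) and 34.9 (highest) across WT saline. The lowest postsynaptic member was Shank3, a scaffold of the postsynaptic density (ENSMUSG00000022623, chromosome 15, 89499623 to 89560261), at 6.43, 6.78, 5.34, 5.64 and 6.85 CPM across KO AAV, 4.84, 10.4, 6.18, 5.21 and 10.5 across KO saline, and 3.69 (lowest), 6.70 (median) and 10.6 (highest) across WT saline. Shank3 rested on 6 to 20 counts per library, the fewest of the members. Together the presynaptic members took 0.772% to 0.935% of all counts in KO AAV, 0.606% to 0.911% in KO saline and 0.687% to 0.987% in WT saline. The postsynaptic members took 0.397% to 0.575% in KO AAV, 0.462% to 0.524% in KO saline and 0.441% to 0.629% in WT saline. On both sides the 3 groups overlapped. Beyond Syt1, Snap25 and Camk2a, the other 31 members averaged from 6.86 to 506 CPM over all libraries.

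**Figure D1:**
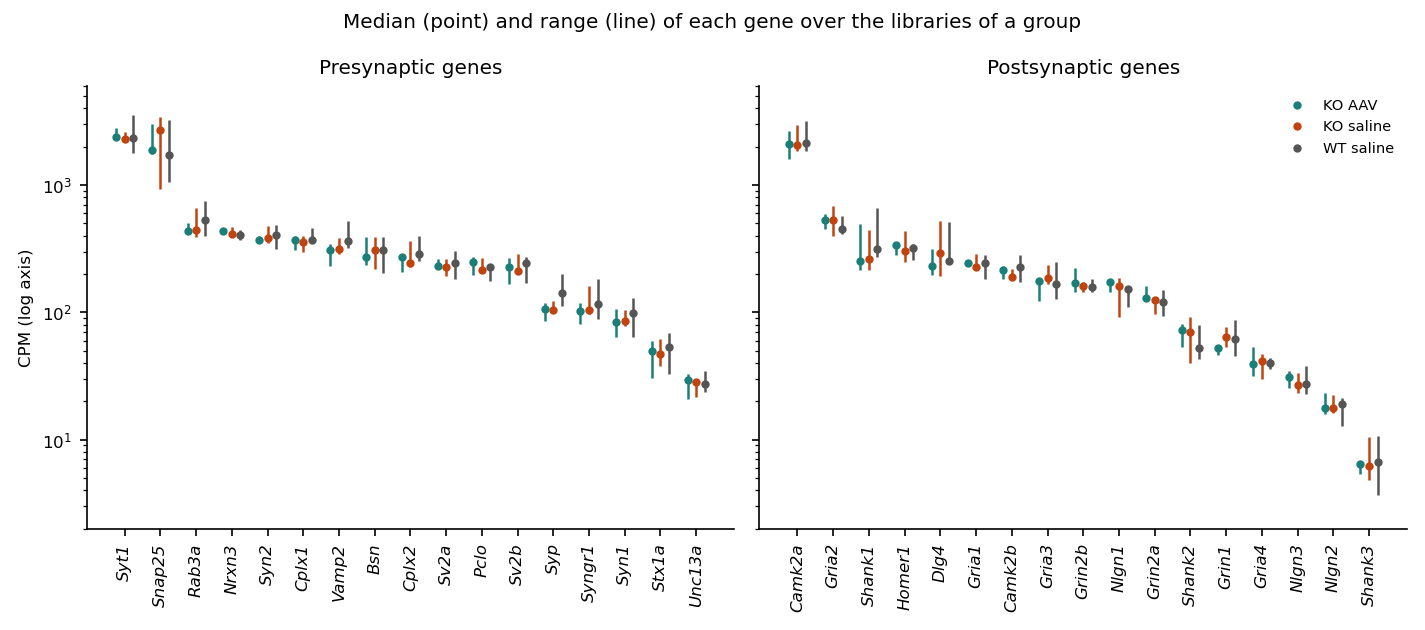
Level of each of the 34 genes in CPM on a log axis, ordered by mean level within the presynaptic (left) and postsynaptic (right) side; points are medians and lines the range over the libraries of KO AAV (n = 5), KO saline (n = 5) and WT saline (n = 6). The lines of the 3 groups overlap for every gene, and the longest is that of Snap25 in KO saline.

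Loss of progranulin was addressed first, by setting KO saline against WT saline, which asks whether these cortical transcripts differ at this age when Grn is missing. No member passed an adjusted p of 0.05 (edgeR quasi-likelihood test, Benjamini-Hochberg over 10363 genes), where 0.0482% of all tested genes did. At an unadjusted p under 0.05 there was 1 member, Syp, or 2.94% of the 34, against 4.11% of all genes. Presynaptic fitted changes were mostly negative, 14 of 17, with a median log2 change of -0.08; postsynaptic ones were negative in 6 of 17, with a median of 0.02, and the median over all genes was 0.00. These medians are descriptions, with no test. With 1 library left out the presynaptic median ran from -0.14 (without WT saline replicate 2) to -0.06, and the postsynaptic one from -0.036 (without WT saline replicate 3) to 0.048, so the sign of the postsynaptic median rests on single libraries. The 95% interval lay within 1.5-fold either way for 15 presynaptic and 14 postsynaptic members, and within 2-fold for all 34.

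Syp encodes synaptophysin, the most used marker protein of the vesicle membrane (ENSMUSG00000031144, chromosome X, 7638471 to 7653256). Its level was 121, 104, 124, 104 and 105 CPM in KO saline, against 111 (lowest), 142 (median) and 198 (highest) CPM in WT saline. The lowest 3 KO saline libraries lay below every WT saline library, and the other 2 lay within the lower part of the WT saline range. The means were 111 ± 9.88 CPM in KO saline (SD, n = 5), against 146 ± 34.8 CPM in WT saline (SD, n = 6). The fit gave log2 change -0.39, SE 0.15, edgeR adjusted p = 0.994, and an unadjusted p of 0.0136. The Syp interval of -0.69 to -0.09 leaves out 0 and is not adjusted for the number of genes tested. Over the 32 alternatives tried the Syp log2 change ran from -0.47 to -0.29, nearest to 0 without WT saline replicate 1, its highest library. Its unadjusted p ran from 0.0034 to 0.0869, and it was over 0.05 with a replicate block and with males alone.

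Vamp2, the vesicle SNARE that pairs with Snap25 and syntaxin (ENSMUSG00000020894, chromosome 11, 69088490 to 69092384), had 379, 289, 386, 313 and 290.3 CPM in KO saline and 323 (lowest), 365 (median) and 521 (highest) CPM in WT saline (log2 change -0.23, SE 0.14, edgeR adjusted p = 0.994). In KO saline, replicates 1 and 3 lay above the WT saline median and the other 3 below every WT saline library. Cplx2, a complexin that clamps the assembled SNARE complex (ENSMUSG00000025867, chromosome 13, 54371349 to 54383917), had 363, 245, 293, 232 and 229 CPM in KO saline and 254 (lowest), 288 (median) and 399 (highest) CPM in WT saline (log2 change -0.19, SE 0.15, edgeR adjusted p = 0.994). The same 2 replicates were its highest in KO saline. None of these 3 vesicle genes had groups free of overlap; over all genes 0.396% had.

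On the postsynaptic side the lowest p belonged to Camk2b, the beta subunit of the kinase (ENSMUSG00000057897, chromosome 11, 5969644 to 6066362), with 218, 185, 216, 191 and 179 CPM in KO saline and 172 (lowest), 225 (median) and 281 (highest) CPM in WT saline (log2 change -0.20, SE 0.13, edgeR adjusted p = 0.994). All 5 KO saline libraries lay below the WT saline median and within its range. Gria2, the AMPA receptor subunit that limits calcium entry (ENSMUSG00000033981, chromosome 3, 80681450 to 80802835), had 395, 674, 417, 527 and 679 CPM in KO saline and 409.9 (lowest), 451 (median) and 571 (highest) CPM in WT saline (log2 change 0.21, SE 0.14, edgeR adjusted p = 0.994). Replicates 2 and 5 exceeded every WT saline library, and replicate 1 lay below them all. Without replicate 5 the Gria2 log2 change was 0.10, and without replicate 2 it was 0.11. Shank1, another postsynaptic scaffold (ENSMUSG00000038738, chromosome 7, 44310253 to 44360572), had 444, 215, 355, 260.5 and 247 CPM in KO saline and 271 (lowest), 315 (median) and 665 (highest) CPM in WT saline (log2 change -0.34, SE 0.25, edgeR adjusted p = 0.994). With males alone its log2 change was 0.079, and it was -0.52 without KO saline replicate 1 and -0.12 without WT saline replicate 4, so its sign and size rest on which libraries enter. The other 14 postsynaptic members lay between log2 changes of -0.05 (Nlgn3) and 0.23 (Shank2).

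**Figure D2:**
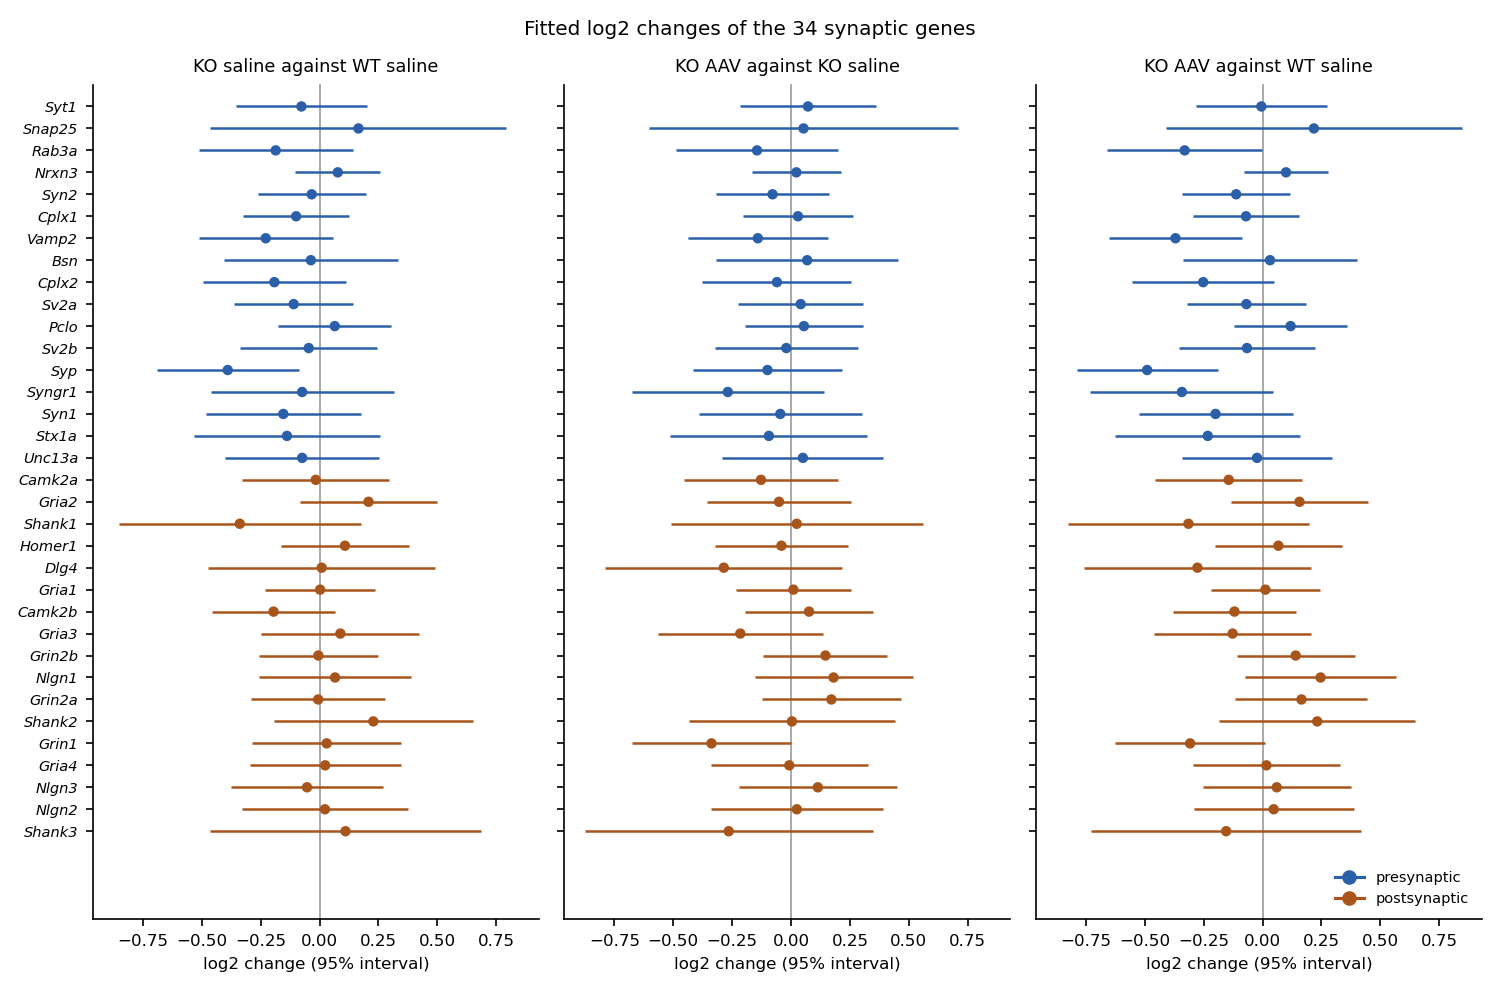
Fitted log2 change (point) and 95% interval (line) of each gene in the 3 comparisons, presynaptic genes above and postsynaptic genes below, each ordered by mean level. Most intervals include 0; the presynaptic points for KO saline against WT saline and KO AAV against WT saline lie mostly left of 0, with Syp furthest left at -0.39 and -0.49.

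With KO saline replicates 1 and 3 and WT saline replicate 4 left out, an alternative chosen after the data were seen and on these genes themselves, 9 members had an unadjusted p under 0.05 in KO saline against WT saline. Over all genes the same setting gave 13.3%, and no member passed adjustment, the lowest adjusted p being 0.22 for Gria2. Lower in KO saline were Syp (log2 change -0.44), Shank1 (-0.44), Rab3a (-0.33), Cplx2 (-0.32) and Vamp2 (-0.28). Higher were Snap25 (0.50), Shank2 (0.43), Gria2 (0.39) and Homer1 (0.28), a scaffold that ties receptors to calcium stores. The presynaptic median was -0.08 and the postsynaptic one 0.02 in this setting. These libraries were left out for how they differ in these genes, so this count supports nothing by itself.

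Treatment was addressed next, by setting KO AAV against KO saline, which asks whether the virus alters these transcripts in knockout mice. No member passed adjustment, where 0.0193% of all genes did, and 1 member, Grin1, had an unadjusted p under 0.05, against 2.49% of all genes. Fitted changes were split evenly, with 17 positive and 17 negative, and the medians were -0.02 for presynaptic and 0.00 for postsynaptic members, against -0.01 for all genes. With 1 library left out both medians took either sign, from -0.074 to 0.046 for presynaptic and from -0.055 to 0.052 for postsynaptic members. Intervals lay within 1.5-fold for 15 presynaptic and 14 postsynaptic members. No member had groups free of overlap, against 0.502% of all genes.

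Grin1 encodes the obligatory subunit of NMDA receptors (ENSMUSG00000026959, chromosome 2, 25291181 to 25319187). It had 47.7, 46.3, 53.4, 52.4 and 54.2 CPM in KO AAV, against 69.4, 57.8, 77.2, 63.7 and 53.7 CPM in KO saline, with means of 50.8 ± 3.57 CPM in KO AAV, against 64.4 ± 9.30 CPM in KO saline (SD, n = 5 each). Of the KO AAV libraries, 4 lay below every KO saline library, and the fifth was above the lowest one by less than 1 CPM (log2 change -0.34, SE 0.16, edgeR adjusted p = 1.00, unadjusted p of 0.0487). In WT saline the range was wide, 45.4 (lowest), 61.5 (median) and 86.8 (highest) CPM, and it enclosed the KO AAV libraries. Over the 32 alternatives its log2 change ran from -0.43 to -0.20 and its unadjusted p from 0.0278 to 0.229; it was over 0.05 in 24 of the 32, among them DESeq2, limma and 12 of the 16 settings with 1 library left out, which include libraries of all 3 groups. An antisense transcript, Grin1os, overlaps its exons on the other strand; whether counting used the strand is not stated in the labels, so reads of both cannot be told apart.

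Of the other glutamate receptor genes, Gria3, an AMPA receptor subunit (ENSMUSG00000001986, chromosome X, 41400854 to 41678601), had 177, 158, 123, 186 and 187 CPM in KO AAV, against 234, 185, 193, 168 and 185 CPM in KO saline (log2 change -0.22, SE 0.17, edgeR adjusted p = 1.00). KO saline replicate 1 and KO AAV replicate 3 were the extremes, and the log2 change was -0.13 without the first and -0.11 without the second. Grin2a, an NMDA receptor subunit that gains ground as cortex matures (ENSMUSG00000059003, chromosome 16, 9567898 to 9995560), had 149.9, 124, 123, 129.7 and 162 CPM in KO AAV, against 96.8, 126, 131, 133 and 124 CPM in KO saline (log2 change 0.17, SE 0.14, edgeR adjusted p = 1.00). KO saline replicate 1 was far below the other 4 of its group, and without it the log2 change was 0.10.

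The presynaptic members of lowest p in this comparison were Syngr1, Vamp2 and Rab3a, all proteins of the vesicle membrane or attached to it. Syngr1, synaptogyrin (ENSMUSG00000022415, chromosome 15, 80091334 to 80119501), had 80.3, 102, 107, 118 and 93.4 CPM in KO AAV, against 137, 96.3, 162, 104 and 105 CPM in KO saline (log2 change -0.27, SE 0.20, edgeR adjusted p = 1.00). Vamp2 had 230.3, 311, 299, 344 and 318 CPM in KO AAV, against the KO saline values above (log2 change -0.14, SE 0.14, edgeR adjusted p = 1.00). Rab3a, the vesicle GTPase (ENSMUSG00000031840, chromosome 8, 70754679 to 70758677), had 439, 435, 427, 508 and 424 CPM in KO AAV, against 549, 422, 664, 446 and 389 CPM in KO saline (log2 change -0.14, SE 0.16, edgeR adjusted p = 1.00). In all 3 genes the highest of the 10 knockout libraries were KO saline replicates 1 and 3. Without these 2 libraries and WT saline replicate 4, the log2 change was -0.02 for Syngr1, 0.02 for Vamp2 and 0.10 for Rab3a, and that of Grin1 was -0.20. In that setting 1 member, Gria2 (-0.26), had an unadjusted p under 0.05, against 6.05% of all genes. Between the main fit and that setting, Dlg4 went from -0.29 to 0.12, Snap25 from 0.05 to -0.40 and Shank1 from 0.02 to 0.36. The postsynaptic median was 0.069 there, above its range with 1 library left out.

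KO AAV was last set against WT saline, which asks what difference from wild type is left after treatment; both groups also enter the comparisons above. No member passed adjustment, where 0.00965% of all genes did. At an unadjusted p under 0.05 there were 3 members, all presynaptic and lower in KO AAV, which is 8.82% of the 34 members and 17.6% of the 17 presynaptic ones, against 4.02% of all genes. Of the presynaptic changes 13 of 17 were negative (median log2 change -0.07), of the postsynaptic ones 7 of 17 (median 0.02), and the median of all genes was -0.01. With 1 library left out the presynaptic median ran from -0.14 (without WT saline replicate 2) to -0.05, and the postsynaptic one from -0.025 (without WT saline replicate 5) to 0.070. Intervals lay within 1.5-fold for 11 presynaptic and 12 postsynaptic members. None of the 34 had groups free of overlap, against 0.318% of all genes.

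Syp again had the lowest p, with 85.7, 119, 96.1, 107 and 112 CPM in KO AAV, against 111 (lowest), 142 (median) and 198 (highest) CPM in WT saline (log2 change -0.49, SE 0.14, edgeR adjusted p = 0.881; interval -0.79 to -0.19, unadjusted p of 0.00265). All 5 KO AAV libraries lay below the WT saline median, and 3 lay below every WT saline library. Over the 32 alternatives tried, its log2 change ran from -0.55 to -0.39 and its unadjusted p from 7.77e-04 to 0.0247, and the adjusted p from 0.558 to 0.999. Vamp2 had 230.3, 311, 299, 344 and 318 CPM in KO AAV and 323 (lowest), 365 (median) and 521 (highest) CPM in WT saline (log2 change -0.37, SE 0.14, edgeR adjusted p = 0.881, unadjusted p of 0.0132). In KO AAV, 4 of the 5 libraries lay below every WT saline library, and replicate 1 was the lowest of all 16. Without that replicate the Vamp2 log2 change was -0.28 and its unadjusted p over 0.05, as it also was with males alone. Rab3a had 439, 435, 427, 508 and 424 CPM in KO AAV and 398 (lowest), 529 (median) and 744 (highest) CPM in WT saline (log2 change -0.33, SE 0.16, edgeR adjusted p = 0.881, unadjusted p of 0.0481). The KO AAV values of Rab3a sat within a narrow band in the lower part of the WT saline range. Without WT saline replicate 1 or without replicate 4, its 2 highest libraries, the Rab3a log2 change was -0.24, and over the 32 alternatives its unadjusted p ran from 0.0128 to 0.206. Without the 3 libraries that stood apart, the members at an unadjusted p under 0.05 were Syp (-0.44), Grin1 (-0.38) and Vamp2 (-0.26), against 3.83% of all genes, and none passed adjustment.

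Syngr1 and Cplx2 followed, with log2 change -0.34 (SE 0.19) and log2 change -0.25 (SE 0.15), at unadjusted p of 0.0812 and 0.0968 (edgeR; adjusted p 0.881 for each). Their means were 100.1 ± 14.3 CPM for Syngr1 in KO AAV and 127 ± 40.2 CPM in WT saline, and 261 ± 29.5 CPM for Cplx2 in KO AAV and 310.3 ± 63.3 CPM in WT saline (SD, n = 5 and 6). The calcium sensor Syt1 (log2 change -0.01), the priming factor Unc13a (-0.02) and the active zone scaffold Bsn (0.03) had the smallest changes of the presynaptic side. The release SNARE Snap25 had a positive change of 0.22 with the widest interval, -0.41 to 0.85. Pclo (0.12), a second active zone scaffold, and the adhesion gene Nrxn3 (0.10) were positive too.

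On the postsynaptic side, Grin1 had log2 change -0.31, SE 0.15, edgeR adjusted p = 0.881; each KO AAV library lay below the WT saline median. Nlgn1, the neuroligin of excitatory synapses, which binds neurexins across the cleft (ENSMUSG00000063887, chromosome 3, 25426215 to 26332460), had 177, 175, 144, 169 and 174 CPM in KO AAV and 111 (lowest), 152 (median) and 161 (highest) CPM in WT saline (log2 change 0.25, SE 0.15, edgeR adjusted p = 0.881). In KO AAV, 4 libraries lay above every WT saline library and replicate 3 lay below the median. Shank1 had 236, 254, 214, 344 and 498 CPM in KO AAV and 271 (lowest), 315 (median) and 665 (highest) CPM in WT saline (log2 change -0.31, SE 0.25, edgeR adjusted p = 0.881). Its log2 change was -0.08 without WT saline replicate 4, its highest library, and -0.55 without KO AAV replicate 5, the highest of that group. The remaining 14 postsynaptic members lay between -0.28 (Dlg4) and 0.23 (Shank2). Without the 3 libraries that stood apart, Dlg4 was at -0.04 and Shank2 at 0.18.

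**Figure D3:**
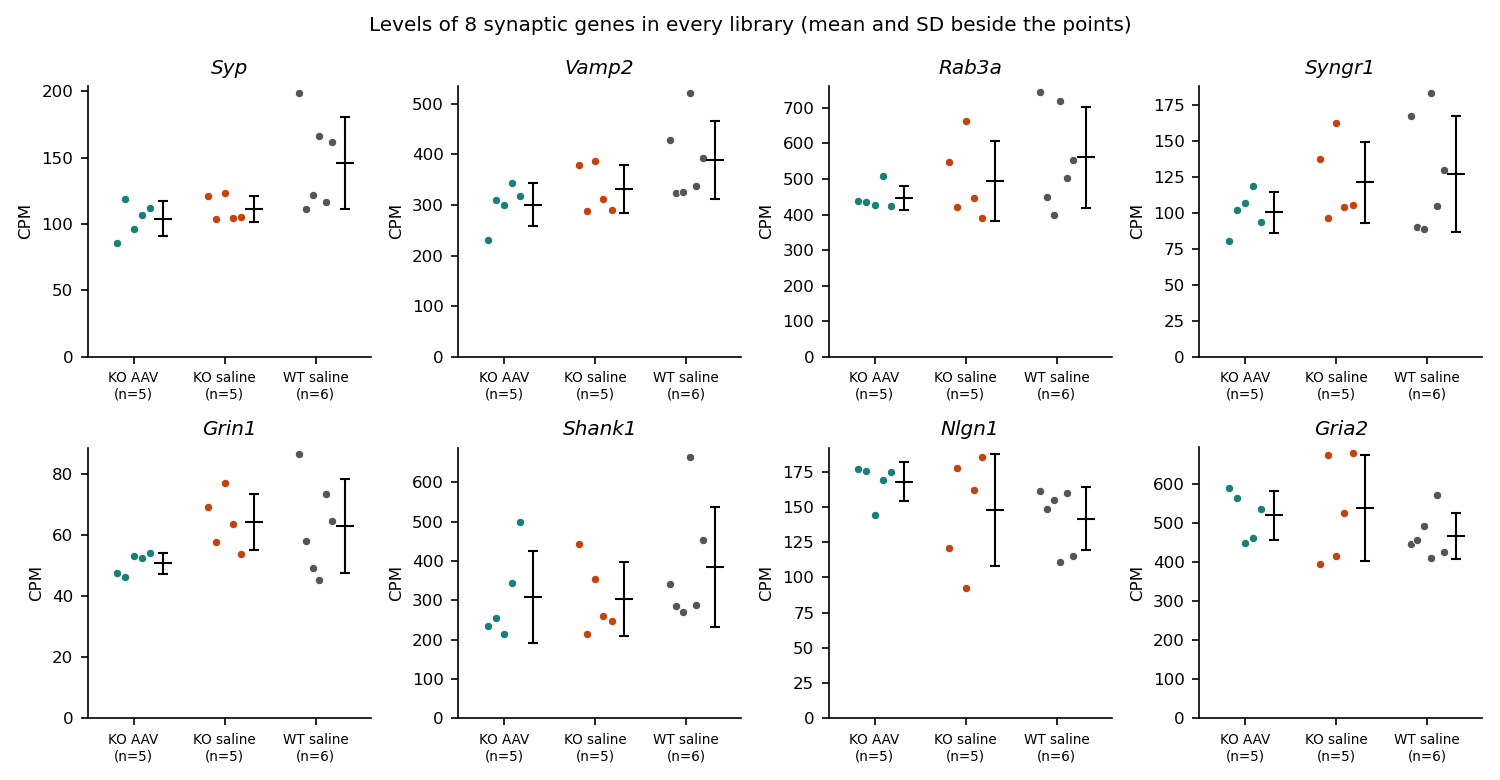
CPM of 8 synaptic genes in every library of KO AAV (n = 5), KO saline (n = 5) and WT saline (n = 6), points in replicate order, with mean and SD as a bar at the right of each group. Syp lies between 85.7 and 119 CPM in KO AAV and between 104 and 124 CPM in KO saline, and WT saline reaches 198 CPM; the groups overlap for each gene.

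Both sides of the synapse were then set side by side within each library, as the mean over 17 genes of log2 CPM less each gene's mean over all 16 libraries. The presynaptic level was -0.05 ± 0.07 in KO AAV, -0.03 ± 0.05 in KO saline and 0.06 ± 0.16 in WT saline (mean ± SD on the log2 scale, n = 5, 5 and 6). By library it was -0.10, 0.04, -0.12, -0.07 and 0.03 in KO AAV and -0.10, 0.02, -0.03, -0.01 and -0.00 in KO saline. In WT saline the lowest was -0.21, the median 0.13 and the highest 0.21. WT saline thus held both the highest and the lowest libraries, with 4 of 6 above every knockout library and replicate 2 below them all. The postsynaptic level was -0.01 ± 0.13 in KO AAV, 0.01 ± 0.04 in KO saline and -0.00 ± 0.08 in WT saline.

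The presynaptic minus the postsynaptic level was -0.04 ± 0.11 in KO AAV, -0.04 ± 0.05 in KO saline and 0.06 ± 0.13 in WT saline. It was below 0 in 3 of 5 KO AAV, 4 of 5 KO saline and 1 of 6 WT saline libraries. The group means differ by less than the SD of WT saline, the widest of the groups. WT saline and KO saline differ by more than the KO saline SD of 0.05. These SDs describe single animals and are no test of the means. Since the genes were chosen with earlier results of these data known, the score has no test.

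**Figure D4:**
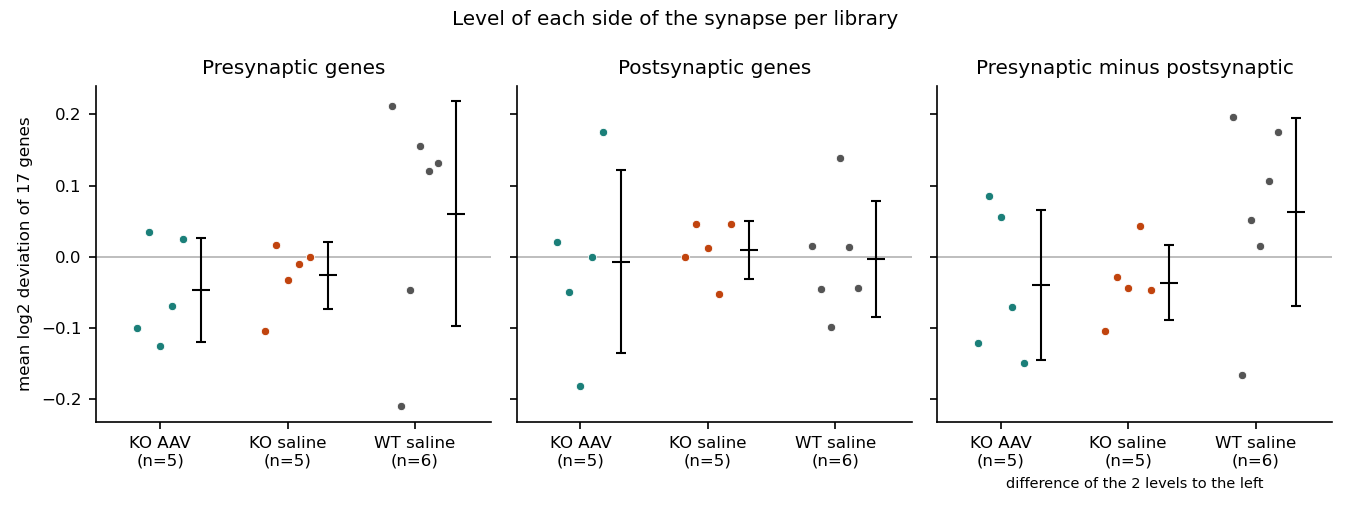
Mean log2 deviation of the 17 presynaptic genes, of the 17 postsynaptic genes and their difference, per library, with mean and SD per group at the right. WT saline spans -0.21 to 0.21 on the presynaptic side and encloses the libraries of both knockout groups.

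Paralogs of the same family had the same order of mean level in each group, and the group means of each ratio and share below differed by less than the SD of WT saline. That SD is a spread of single animals and no test of the means. These ratios compare tag counts of different transcripts, per tag and not per length. Among vesicle proteins, Syn1 over Syn2, both synapsins that tether vesicles to one another, was 0.22 ± 0.03 in KO AAV, 0.22 ± 0.04 in KO saline and 0.24 ± 0.05 in WT saline (SD). Sv2a over Sv2b, 2 vesicle glycoproteins, was 1.09 ± 0.19 in KO AAV, 1.05 ± 0.21 in KO saline and 1.08 ± 0.20 in WT saline. Sv2b itself had 241, 209, 166, 226 and 268 CPM across KO AAV, 209.7, 289, 201, 203 and 222 across KO saline, and 169.5 (lowest), 244 (median) and 273 (highest) across WT saline, with KO saline replicate 2 above the others of its group. Cplx1 over Cplx2 was 1.39 ± 0.08 in KO AAV, 1.35 ± 0.33 in KO saline and 1.26 ± 0.26 in WT saline. Cplx1, the complexin partner, had 311, 373, 395, 361 and 368 CPM across KO AAV, 315, 296, 401, 399 and 358 across KO saline, and 349.6 (lowest), 371 (median) and 457 (highest) across WT saline; WT saline replicate 6 was its highest library.

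Among postsynaptic families, Camk2a over Camk2b was 10.03 ± 1.90 in KO AAV, 11.4 ± 1.38 in KO saline and 10.4 ± 2.09 in WT saline. Of the AMPA receptor counts, Gria2 held 53.7 ± 2.78% in KO AAV, 52.6 ± 8.19% in KO saline and 50.4 ± 6.42% in WT saline. Gria1 held 25.05 ± 1.95% in KO AAV, 24.01 ± 4.50% in KO saline and 25.8 ± 3.97% in WT saline. Gria3 held 17.1 ± 2.06% in KO AAV, 19.3 ± 3.91% in KO saline and 19.4 ± 4.41% in WT saline, and Gria4, the least abundant of the 4, held 4.16 ± 0.708% in KO AAV, 4.05 ± 0.639% in KO saline and 4.32 ± 0.329% in WT saline. Grin2a over Grin2b, the ratio of the NMDA receptor subunits that dominate mature and young synapses, was 0.78 ± 0.07 in KO AAV, 0.76 ± 0.07 in KO saline and 0.76 ± 0.15 in WT saline. Of the neuroligins, Nlgn1 over Nlgn3 was 5.67 ± 0.98 in KO AAV, 5.46 ± 1.80 in KO saline and 5.07 ± 1.39 in WT saline. Nlgn2, the neuroligin of inhibitory synapses, was the lowest of the 3, at 18.8 ± 2.77 CPM in KO AAV, 18.4 ± 2.37 in KO saline and 18.0 ± 3.16 in WT saline. Of the Shank scaffolds Shank1 was highest, Shank2 averaged 67.7 ± 11.9, 67.1 ± 21.4 and 57.6 ± 15.6 CPM in KO AAV, KO saline and WT saline, and Shank3 was lowest.

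For each of the 34 genes, the larger share of the squared deviations lay within groups. This raw share does not allow for the numbers of groups and animals. After the group means were removed, a single component held 48.3% of the members' spread (35.5% for the first component of all tested genes). At one end stood WT saline replicate 4 (-0.45), KO saline replicate 1 (-0.42) and KO saline replicate 3 (-0.37), and at the other KO saline replicate 2 (0.34), WT saline replicate 5 (0.31) and KO saline replicate 5 (0.30). KO AAV libraries ran from -0.15 to 0.21. The genes that lean most toward the first 3 libraries were Shank1, Dlg4, Syngr1, Rab3a, Vamp2 and Cplx2, and those that lean most the other way were Snap25, Shank2, Bsn, Nlgn1 and Gria2. Each end holds genes of both sides of the synapse.

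Dlg4, which encodes the main scaffold PSD-95 (ENSMUSG00000020886, chromosome 11, 70016942 to 70047522), and Snap25, a gene singled out after its values were seen, lie near the ends of this component. Dlg4 had 198, 232, 219, 316 and 268 CPM across KO AAV, 524, 193, 301, 295 and 191 across KO saline, and 249 (lowest), 254 (median) and 515 (highest) across WT saline, where the other 5 libraries lay between 249 and 266. Snap25 over Dlg4 was 15.1, 11.95, 8.05, 5.54 and 6.98 in KO AAV, against 1.85, 17.7, 3.08, 9.22 and 14.2 in KO saline. In WT saline it was 2.04 (lowest), 6.62 (median) and 12.9 (highest). The 3 lowest ratios are those of the 3 libraries named above, and within KO saline the ratio spans its whole range. Snap25 (loading 0.52) and Dlg4 (-0.32) themselves help define the component, so these ratios restate it and are no separate result. Nrxn3, at 433 ± 14.9 CPM in KO AAV, 426 ± 26.4 in KO saline and 404 ± 27.8 in WT saline, took almost no part in this pattern (loading 0.01) and had the smallest within-group SD, 0.08 on the log2 scale.

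**Figure D5:**
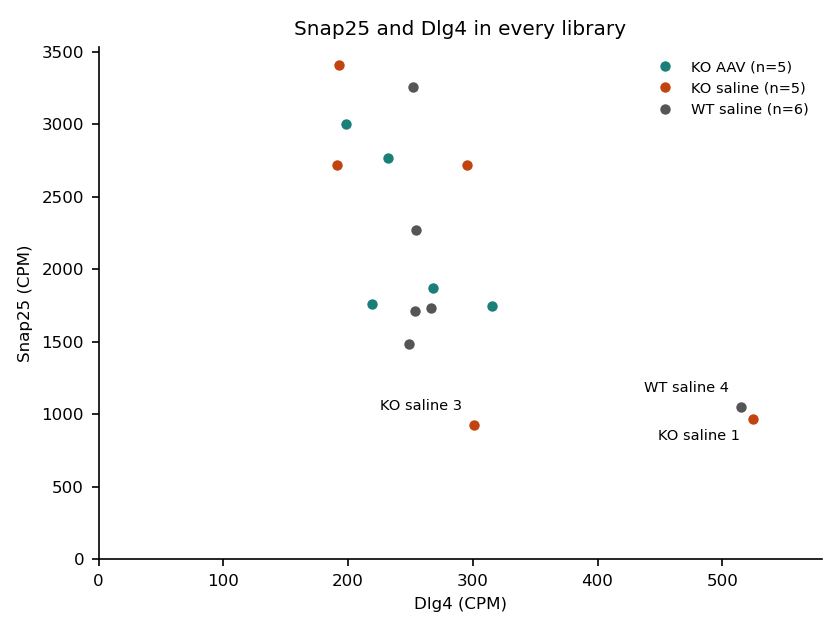
Snap25 against Dlg4 in CPM, 1 point per library of KO AAV, KO saline and WT saline. KO saline replicates 1 and 3 and WT saline replicate 4 have the 3 lowest Snap25 levels, and KO saline 1 and WT saline 4 have the highest Dlg4 levels, 524 and 515 CPM. Both genes help define the component by which these libraries were named.

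Across the 34 members, a gene's place along this component went with the GC content of the last 500 bases of its transcript (Pearson's r = -0.49, Spearman's rho = -0.53). By side, r and rho were -0.65 and -0.60 over the postsynaptic members and -0.35 and -0.41 over the presynaptic ones. Over 10354 tested genes with a transcript sequence the same values were -0.36 and -0.39. For GC content of the whole transcript they were -0.33 and -0.26 over the members, and -0.28 and -0.31 over the 10354 genes. For transcript length they were 0.27 and 0.44 over the members, and 0.03 and 0.09 over the 10354 genes. Genes are not independent replicates, all of them share the same 16 libraries, and base composition may itself go with level or length, so these are descriptions with no p. Total counts were 1387658 in KO saline replicate 1, 1351974 in KO saline replicate 3 and 1849280 in WT saline replicate 4. Over all libraries they ran from 1351974 to 2119019. The RNA integrity number was 9.3 in each of the 3 libraries, against a range of 8 to 9.6 in all 16. Their share of mitochondrial counts was 29.8% in KO saline replicate 1, 26.2% in KO saline replicate 3 and 24.4% in WT saline replicate 4, against 20.4% to 25.5% in the other 13. The part of these measures in the pattern was not tested.

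Other library values also stood apart in single genes. Pclo had 257, 249, 214, 197 and 274 CPM across KO AAV, 209.7, 252, 216, 203 and 266 across KO saline, and 175 (lowest), 226 (median) and 238 (highest) across WT saline, and WT saline replicate 2 gave the lowest value. The share of each gene's total spread that lay between the 3 groups was highest for Syp (46.2%), followed by Vamp2 (33.3%), Grin1 (27.9%) and Nrxn3 (26.0%), and it was 3.78% for Snap25. These are raw shares of squared deviations, not adjusted for the numbers of groups and animals, so they do not weigh groups against animals. Opposite-strand exons overlap those of Syp, Syn1, Syn2, Sv2b, Rab3a, Pclo, Unc13a, Nrxn3, Shank1, Shank3, Grin1, Grin2b and Nlgn1 in the annotation, and their counts may include such reads. For Bsn, Gria2, Gria3, Gria4 and Nlgn3, exons of 1 other gene on the same strand overlap. Reads of that gene may enter their counts.

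A wider set of synaptic genes was read from the same fit. Of 60 other presynaptic genes 59 were tested: none passed adjustment, and at an unadjusted p under 0.05 there were 2 in KO saline against WT saline, 1 in KO AAV against KO saline and 3 in KO AAV against WT saline (3.39%, 1.69% and 5.08%). Over all genes these shares were 4.11%, 2.49% and 4.02%. Median log2 changes of the 59 genes were -0.02, -0.07 and -0.08 in the same order. The vesicular glutamate transporter gene Slc17a7, which fills vesicles of cortical excitatory neurons and is also in their marker list, averaged 166 ± 24.6 CPM in KO AAV and 232 ± 83.1 CPM in WT saline (log2 change -0.48, SE 0.20; edgeR adjusted p = 0.881). Ppfia4, a liprin of the active zone, had a log2 change of -0.54 (SE 0.22) and the complexin Cplx3 of -0.58 (SE 0.25) in the same comparison. Slc17a6, the transporter of mostly subcortical glutamate neurons, had -0.56 (SE 0.23) in KO saline against WT saline, and Stxbp5, the tomosyn gene, whose protein binds SNARE proteins, had 0.31 (SE 0.15). Rims3, a RIM family member of the active zone, had -0.35 (SE 0.17) in KO AAV against KO saline.

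Of 57 other postsynaptic genes 53 were tested, and none passed adjustment. At an unadjusted p under 0.05 there was 1 gene, in KO AAV against KO saline, or 1.89%, against 2.49% of all genes. That gene, Cnih2, an auxiliary subunit of AMPA receptors, averaged 125 ± 13.3 CPM in KO AAV, against 161 ± 25.7 CPM in KO saline (log2 change -0.37, SE 0.14; edgeR adjusted p = 1.00). Against WT saline, KO AAV had 0.32 (SE 0.17) for the adhesion gene Lrrc4 and -0.26 (SE 0.14) for Nrgn, a calmodulin-binding protein of dendrites. The median log2 changes of this list were 0.02 in KO saline against WT saline, -0.01 in KO AAV against KO saline and 0.02 in KO AAV against WT saline.

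Marker genes of the cells in the sample give the setting of these values. Pan-neuronal markers summed to 7136 to 8384 CPM in KO AAV, 7682 to 9071 in KO saline and 7115 to 9241 in WT saline, and none of the 20 was at 0. In KO AAV against WT saline 17 of these 20 had negative changes (median log2 change -0.17), with Rbfox3 at -0.28 (SE 0.12; edgeR adjusted p = 0.881), Tubb3 at -0.37 and Eno2 at -0.33. In KO saline against WT saline 12 of 20 were negative (median -0.05), with Uchl1 lowest at -0.36. In KO AAV against KO saline 15 of 20 were negative (median -0.07). Of the cortical excitatory neuron markers, 11 of 19 had positive changes in KO AAV against WT saline (median log2 change 0.03). In KO saline against WT saline 11 of 19 were positive too (median 0.05). In KO AAV against KO saline they leaned the same way as the pan-neuronal markers, with 11 of 19 negative (median -0.09). Whether neuronal content has a part in the presynaptic values was not tested.

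Single glial markers passed the test in KO saline against WT saline. Gfap, the filament protein of reactive astrocytes, averaged 71.0 ± 15.5 CPM in KO saline and 21.3 ± 6.17 CPM in WT saline (edgeR adjusted p = 3.86e-05), and the microglial protease gene Ctss averaged 337 ± 29.0 CPM in KO saline and 216 ± 16.9 CPM in WT saline (edgeR adjusted p = 0.00221). Microglia markers summed to 637 to 749 CPM in KO AAV, 755 to 1017 in KO saline and 575 to 693 in WT saline, with KO saline above every other library. Of the 15, 12 had positive changes in KO saline against WT saline (median log2 change 0.28), where the presynaptic members had -0.08 and the postsynaptic members 0.02. GABAergic interneuron markers summed to 1549 to 1732 CPM in KO AAV, 1550.3 to 2109 in KO saline and 1549 to 1997 in WT saline, and myelin markers to 4358 to 7058, 4499.7 to 6015 and 4004 to 6649 CPM in KO AAV, KO saline and WT saline.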

How the data were processed

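Cortex RNA of 16 mice was read as 3′ tags with unique molecular identifiers, per the labels' protocols. The authors deposited raw counts per gene (STAR, GRCm38.p6, edgeR 3.40.2 in R 4.2, per the submitters' processing notes), with a signal table of normalized CPM and, as a ratio, each library's scaling factor. Neither the counting program nor its strand setting is stated in the labels. Counts held at most 2 significant digits.

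From the deposited counts, edgeR 4.0.16 (R 4.3.3) filtered genes with filterByExpr, scaled libraries by TMM and fitted a quasi-likelihood model with 3 groups over all 16 libraries; p-values were adjusted over 10363 genes by Benjamini-Hochberg at 0.05. Libraries of a group are separate animals, so p-values measure the spread between animals. The fit was tested on simulated data, drawn with the spread typical of a gene's level and with no pattern shared between libraries. This check does not cover genes of wider spread, such as Snap25 and Shank1. Alternatives used DESeq2 1.42.0, limma 3.58.1 with pseudocounts of 0.25 and 1 on the deposited CPM signal, other scalings and filters, added terms and left-out libraries. Per-library levels used log2 CPM with a prior count of 2.

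Members and gene lists were chosen with earlier results of these data known. Genes given library by library were the 3 of lowest p on each side per comparison, the highest and lowest in level on each side, and those with a value standing apart; of each other list up to 4 genes of lowest p were named. Snap25 was added after its values were seen. Promoter sequences and gene positions came from RefSeq and GENCODE tables on GRCm38.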

Additional observations from a re-analysis of the deposited data

Results flagged for a closer look

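Of 111 groups of values compared, 102 are of single genes and the rest of per-library levels. In 8 of the 111, all of single genes, 1 library lay far from the others of its group by Dixon's criterion at 95%. Chance alone flags about 5% of groups, 5.6 of the 111. These are single values, given with the range of the rest of the group.

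Of the presynaptic genes, Rab3a had 508 CPM in KO AAV replicate 4, against 424 to 439 in the other 4 KO AAV libraries. Cplx2 had 209 CPM in KO AAV replicate 1, against 267 to 280.3 in the others of that group. Sv2b had 289 CPM in KO saline replicate 2, against 201 to 222 in the others. Cplx1 had 457 CPM in WT saline replicate 6, against 350 to 376 in the others. Pclo had 175 CPM in WT saline replicate 2, against 217 to 238 in the others.

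Of the postsynaptic genes, Nlgn1 had 144 CPM in KO AAV replicate 3, against 169 to 177 in the other KO AAV libraries. Grin2a had 96.8 CPM in KO saline replicate 1, against 124 to 133 in the others. Dlg4 had 515 CPM in WT saline replicate 4, against 249 to 266 in the others. The last 2 libraries are among the 3 that stood apart in the Snap25 to Dlg4 ratio; the others are not.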

How the results depend on the processing

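No member passed an adjusted p of 0.05 in any of the 3 comparisons under any of 32 alternatives each. Counts at an unadjusted p under 0.05 moved more. They are given without the share of all genes under each setting, so a rise or fall is not a result about the members. That share rose from 4.11% to 13.3% in KO saline against WT saline without KO saline replicates 1 and 3 and WT saline replicate 4. In KO saline against WT saline, 1 member became 2 with library totals alone, 3 with no count filter, 0 with a replicate block, 0 with males alone, and 9 without KO saline replicates 1 and 3 and WT saline replicate 4, a choice made after seeing the data. Shank1, at -0.34, was 0.079 there with males alone. In KO AAV against KO saline, 1 member became 0 with DESeq2 size factors in edgeR, library totals alone, no mitochondrial genes, no count filter, DESeq2, limma-voom, limma on deposited CPM with either pseudocount, a replicate block, sex as a term, or both libraries of RNA integrity 8 left out, and 2 with males alone. The presynaptic median, at -0.02, was 0.044 with library totals alone and -0.083 with RNA integrity as a term; without the 3 libraries Vamp2 was 0.018 and Rab3a 0.095. In KO AAV against WT saline, 3 members became 6 with no count filter, 5 with RNA integrity as a term, 5 without both libraries of RNA integrity 8, and 1 with males alone. With 1 library left out at a time, these counts ran from 1 to 3 in KO saline against WT saline (3 without KO saline replicate 1), from 0 (in 12 of 16 settings) to 1 in KO AAV against KO saline, and from 1 (without KO AAV replicate 1) to 5 (without WT saline replicate 3) in KO AAV against WT saline. The presynaptic median of KO AAV against KO saline then ran from -0.074 to 0.046, the highest without KO saline replicate 5. The causes were not tested.

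Whether replicate numbers pair the samples cannot be decided here: same-numbered libraries correlated at -0.43 to 0.44, and differently numbered ones were not compared. The replicate block left 0 members at an unadjusted p under 0.05 (edgeR) in each of the first 2 comparisons. No named change passed the adjusted threshold under any alternative, so calls at that threshold say nothing about stability. With 1 library left out, log2 changes in KO saline against WT saline ran from -0.32 to -0.12 for Cplx2 and from -0.30 to -0.13 for Vamp2. In KO AAV against KO saline they ran from -0.34 to -0.13 for Syngr1, -0.19 to -0.04 for Vamp2 and -0.20 to -0.0033 for Rab3a, and in KO AAV against WT saline from -0.38 to -0.20 for Grin1. Low genes such as Shank3 are limited by few counts. Shank3 had 6 to 20 counts per library, which rounding to 2 significant digits leaves unchanged.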
